A study of Mus musculus with 22 samples.

Results

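The Hox cluster genes were silent or nearly so in adult mouse forebrain, and in cultured embryonic stem cells and neural progenitor cells their level differed far more between replicate cultures than between Phf8 genotypes. Members were the protein-coding genes whose symbol is Hoxa, Hoxb, Hoxc or Hoxd followed by a number, read from Ensembl identifiers with the mouse GENCODE annotation of GRCm38. Of 39 such genes in the annotation, 38 had their identifier among the 39179 rows of every count table, and Hoxd4 was not analysed here. The members lie in 4 clusters: 11 Hoxa genes on chromosome 6 (52155590 to 52260880, minus strand), 10 Hoxb genes on chromosome 11 (96194316 to 96368256, plus strand), 9 Hoxc genes on chromosome 15 (102921103 to 103036852, plus strand) and 8 Hoxd genes on chromosome 2 (74668310 to 74765142, plus strand).

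The study deleted Phf8, an X-linked gene for a histone demethylase, by Cre-mediated removal of a pair of exons that encode part of its catalytic JmjC domain, and sequenced RNA from wild type (WT) and knockout (KO) samples on a background the labels give as B6x129SvJ. The 22 libraries were 2 WT and 2 KO cultures of embryonic stem cells (ESCs), 3 WT and 3 KO cultures of neural progenitor cells (NPCs), and 3 WT and 3 KO samples each of ventral striatum (STR) and prefrontal cortex (PFC) from mice of 2 months. Per the labels the ESCs came from blastocyst outgrowths and were kept on gelatin or feeder cells, and the NPCs came from E16.5 embryos and grew as a monolayer on polyornithine. The exons were removed in ESC clones with a CMV-Cre vector, so the deletion is not limited to a cell type. Whether feeder cells in the ESC cultures carried it is not given in the sources used here. The labels do not say which line, embryo or culture day stands behind a replicate number, so p-values measure the spread between these samples, which may be technical.

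Counts on genes ranged from 11455757 to 13657534 in ESC, 11798544 to 15539811 in NPC, 7159094 to 8594441 in STR and 5898286 to 10148073 in PFC libraries. A member with 0 counts could therefore still have been present at up to 0.193 to 0.509 CPM (counts scaled to the library total), the level of 3 counts in the deepest and the shallowest library; such limits cover counting error only. Phf8 itself averaged 29.0% of its WT mean in KO ESCs, 37.2% in KO NPCs and 38.5% in both KO brain regions, with no overlap between the genotypes in any of them. Defining markers were high in the tissues the labels name: 12 pluripotency genes summed to between 5528 and 6562 CPM in ESCs and to at most 671 CPM elsewhere, 12 neural progenitor genes summed to between 9065 and 12568 CPM in NPCs, and 10 striatal neuron genes summed to between 2415 and 3094 CPM in STR against at most 680 CPM in PFC. STR KO replicate 1 stood apart, with 10 hypothalamus genes summing to 259 CPM against 34.2 to 60.3 CPM in the other STR libraries and 10 cortical projection neuron genes to 423 against 849 to 1057 CPM. It held 3 Hox counts, within the range of the other STR libraries. Leaving it out called 0 Hox members in STR as before. But 0 members were tested there, so this cannot show whether the library mattered.

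Hox genes encode homeodomain transcription factors that give cells along the head-to-tail axis their positional identity. Within a cluster the genes are numbered by paralog group, and genes with low numbers are switched on earlier and further towards the head than genes with high numbers, an arrangement called colinearity. In the embryonic nervous system they are known for patterning the hindbrain and spinal cord, whereas the forebrain lies in front of their domain, and in cells that do not use them the clusters are held silent by Polycomb complexes.

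The promoter windows of 4 members are shown because these genes mark the different patterns found below: Hoxa5, the Hoxa gene with the highest level in NPCs, Hoxa10, which lies further along the same cluster and stayed at 0 or 1 count in NPCs, and Hoxb8 and Hoxd13, members of other clusters that were counted in ESCs. Each window runs from 250 bases before to 50 bases after a RefSeq gene start on GRCm38.p6, is written on the strand of the gene, and has in capitals every match to TATAAA (the TATA box) or CCAAT (the CCAAT box) on either strand. The RefSeq table held 23 windows for 21 of the 38 members, with no entry for Hoxb9 and Hoxc8.
Hoxa5, chr6:52204538-52204837, minus strand: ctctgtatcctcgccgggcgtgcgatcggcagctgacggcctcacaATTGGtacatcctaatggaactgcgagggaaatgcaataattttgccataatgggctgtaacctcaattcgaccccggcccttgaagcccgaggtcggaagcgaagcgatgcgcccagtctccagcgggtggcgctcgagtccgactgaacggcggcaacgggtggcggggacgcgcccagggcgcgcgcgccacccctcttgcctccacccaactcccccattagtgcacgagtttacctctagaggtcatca
Hoxa10, chr6:52240805-52241104, minus strand: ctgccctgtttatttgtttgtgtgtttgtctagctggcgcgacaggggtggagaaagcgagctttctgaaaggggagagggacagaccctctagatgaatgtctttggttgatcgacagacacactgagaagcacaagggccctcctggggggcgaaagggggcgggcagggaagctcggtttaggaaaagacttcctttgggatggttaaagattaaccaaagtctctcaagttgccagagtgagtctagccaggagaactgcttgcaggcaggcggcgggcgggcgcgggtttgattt
Hoxb8, chr11:96281655-96281954, plus strand: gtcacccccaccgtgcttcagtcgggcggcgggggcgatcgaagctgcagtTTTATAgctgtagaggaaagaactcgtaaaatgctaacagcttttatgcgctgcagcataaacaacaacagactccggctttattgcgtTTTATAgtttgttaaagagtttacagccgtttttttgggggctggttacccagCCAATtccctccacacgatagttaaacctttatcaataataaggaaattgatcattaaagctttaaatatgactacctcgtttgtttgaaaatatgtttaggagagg
Hoxd13, chr2:74667975-74668274, plus strand: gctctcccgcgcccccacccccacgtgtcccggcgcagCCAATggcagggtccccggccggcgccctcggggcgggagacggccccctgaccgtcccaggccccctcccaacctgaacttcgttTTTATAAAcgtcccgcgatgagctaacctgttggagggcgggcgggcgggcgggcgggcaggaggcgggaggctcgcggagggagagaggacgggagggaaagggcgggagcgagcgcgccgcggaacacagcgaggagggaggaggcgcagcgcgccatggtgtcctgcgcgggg

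The windows of the members held a median of 15 CpG dinucleotides, against 7 over all 32851 windows of 300 bases, and the 4 shown ranged from 12 in Hoxa10 to 37 in Hoxd13. CCAAT occurred in 14 of the 23 member windows (60.9%) and in 37.4% of all windows, and TATAAA in 3 of 23 (13.04%) and in 13.62% of all. A Hox-Pbx site, TGATTNAT, lay in 2 of 23 member windows (8.70%) and 3.22% of all, and the CTCF core motif in 0 of 23 and 0.648% of all. In Hoxd13 the capitals TTTATAAA hold a pair of overlapping TATA matches, 1 on each strand. These matches describe the letters of the windows and are not evidence of binding.

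Hox counts differed between cultures of one cell type as well as between tissues. Summed over the 38 members, ESC libraries held 137 (WT replicate 1), 837 (WT replicate 2), 135 (KO replicate 1) and 944 (KO replicate 2) counts. NPC libraries held 25, 536 and 39 counts in WT replicates 1, 2 and 3 and 56, 423 and 24 counts in KO replicates 1, 2 and 3. The 6 STR libraries held between 2 and 7 counts (median 3) and the 6 PFC libraries between 2 and 8 counts (median 5). In both kinds of culture the replicate 2 libraries of both genotypes were the high ones and did not overlap with any other library, and every brain library was below every culture library.

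**Figure D1:**
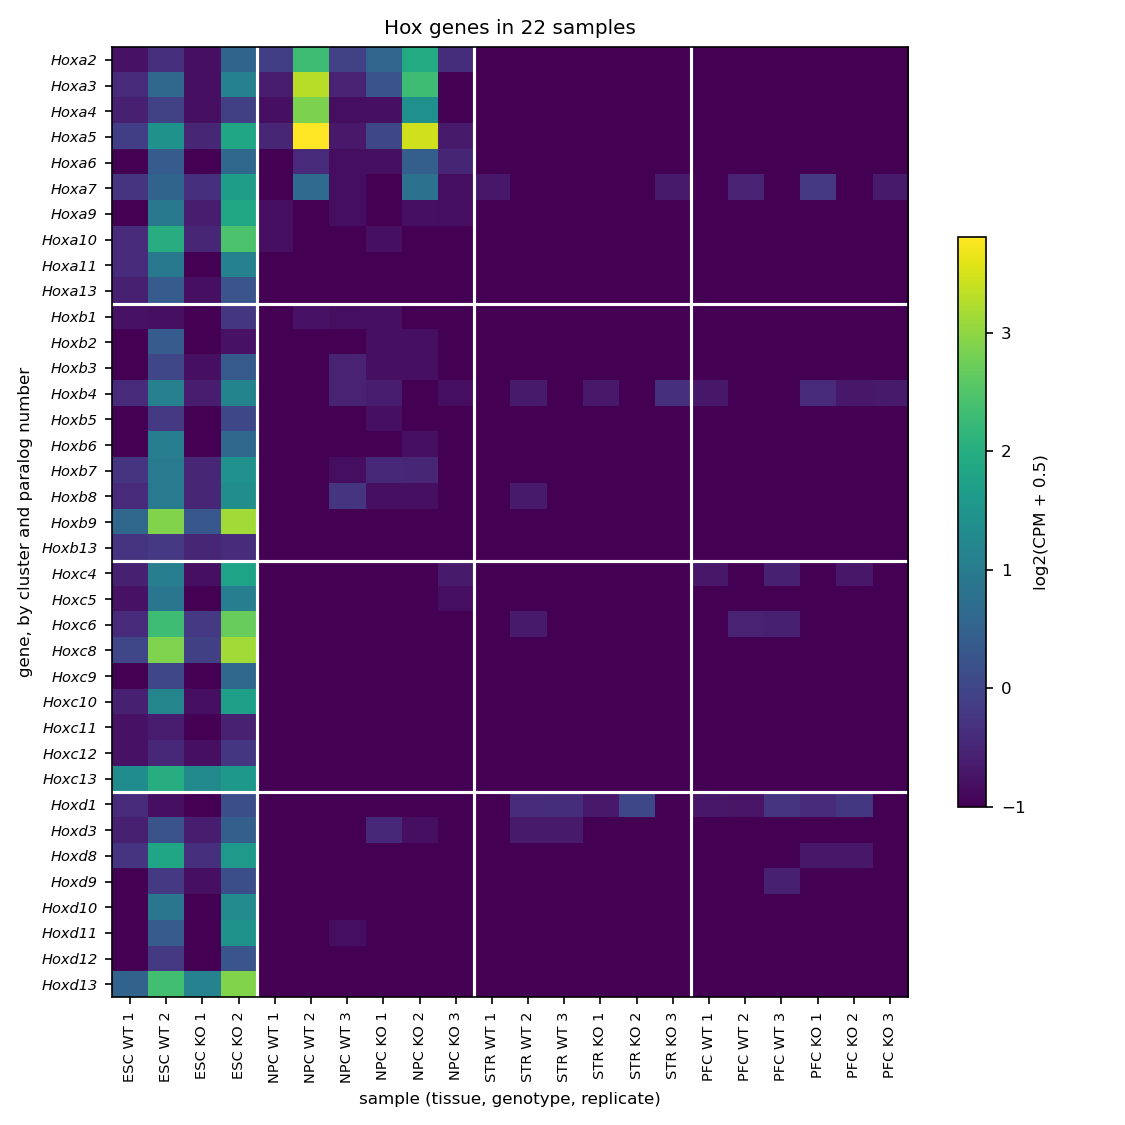
Level of 37 of the Hox genes (rows, by cluster and paralog number) in the 22 samples (columns), as log2(CPM + 0.5) on the colour scale. Signal is spread over all 4 clusters in both ESC replicate 2 libraries, is limited to the low-numbered Hoxa genes in both NPC replicate 2 libraries, and is near the bottom of the scale in the 12 brain libraries.

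In the 12 brain libraries 28 of the 38 members had no count, and the other 10 shared 51 counts. Hoxd1 had the most, with 0 to 4 counts in STR and 0 to 3 in PFC, followed by Hoxb4 with 0 to 2 counts and Hoxa7 with 0 to 3. The highest level of any member in any brain library was 0.526 CPM, for Hoxd1 in STR KO replicate 2. Haglr, a long noncoding RNA next to Hoxd1, was also counted in brain, at 0 to 3 counts in STR and 1 to 7 in PFC, and Hotairm1, a noncoding RNA at the low-numbered end of the Hoxa cluster, had 0 to 6 counts in STR and 0 in every PFC library. No member reached 0.5 CPM in every sample of STR or PFC, the level used here to call a member expressed, against 4 members in ESCs, among them Hoxb9, Hoxc13 and Hoxd13, and 1 in NPCs.

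ESC replicate 2 cultures carried transcripts of all 4 clusters. In CPM, 35 of the 38 members were higher in both replicate 2 cultures than in both replicate 1 cultures and 0 were lower in both, where 26.2% of all genes with a count in ESCs were higher in both. All 38 members had at least 1 count in each replicate 2 culture, 27 reached 0.5 CPM in both, and 8 had 0 counts in both replicate 1 cultures. The 3 members that overlapped were Hoxb1, Hoxb13 and Hoxd1.

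Within the Hoxb, Hoxc and Hoxd clusters, Hoxb9, Hoxc8 and Hoxd13 had the highest mean level per kilobase of exon (RPKM) in replicate 2. Hoxb9, which helps to pattern the thoracic skeleton, stood at 1.02 and 0.732 CPM in WT and KO replicate 1 and at 6.93 and 8.29 CPM in WT and KO replicate 2. Hoxc8, which acts in thoracic vertebrae and brachial motor neurons, stood at 0.510 and 0.439 CPM in replicate 1 and at 6.86 and 8.29 CPM in replicate 2. Hoxd13, a gene of digit development, stood at 0.935 and 1.68 CPM in replicate 1 and at 4.62 and 6.98 CPM in replicate 2. In all 3 genes both replicate 2 cultures were above both replicate 1 cultures, and the WT and KO cultures of one number lay closer to each other than to the cultures of the other number. Replicate 2 exceeded replicate 1 by 3.12 ± 0.27 log2 units (SE) for Hoxb9 (adjusted p = 5.43e-23), 3.98 ± 0.31 for Hoxc8 (adjusted p = 3.25e-27) and 2.14 ± 0.26 for Hoxd13 (adjusted p = 6.81e-13), by edgeR's quasi-likelihood test with genotype in the fit and 1 residual degree of freedom.

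In the Hoxc cluster Hoxc6, a thoracic gene, had 3 and 5 counts in WT and KO replicate 1 and 60 and 68 in WT and KO replicate 2, and differed by 4.02 ± 0.38 log2 units (SE, adjusted p = 2.25e-20). Hoxc4 rose from 2 and 1 to 21 and 34 counts and Hoxc10, a gene of hindlimb-level spinal cord, from 2 and 1 to 24 and 32 counts. In the Hoxa cluster Hoxa10, which is needed in the uterus and the lumbar spine, had 3 and 3 counts in replicate 1 and 47 and 57 in replicate 2, a difference of 4.12 ± 0.43 log2 units (SE, adjusted p = 1.82e-17). Replicate 2 was thus above replicate 1 by more than the gap between genotypes in each of these genes.

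Several members had no count at all in replicate 1, so their rise is a lower bound. Against a floor of 3 counts over both replicate 1 cultures, Hoxd10 was at least 14.0-fold higher in replicate 2 (0, 0, 18 and 23 counts in WT 1, KO 1, WT 2 and KO 2). Hoxd11 was at least 12.6-fold higher (0, 0, 11 and 26 counts), Hoxb6 at least 11.2-fold higher (0, 0, 21 and 12 counts) and Hoxa6 at least 7.84-fold higher (0, 0, 11 and 12 counts). Hoxb2, also at 0 in both replicate 1 cultures, differed between the genotypes in replicate 2, with 11 counts in WT and 1 in KO replicate 2.

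A few members differed little between the replicate numbers. Hoxc13, a gene of hair and nail, had 24, 47, 27 and 28 counts in WT 1, WT 2, KO 1 and KO 2 and differed by 0.56 ± 0.28 log2 units (SE, adjusted p = 0.114, edgeR). Hoxb13, the last gene of its cluster, had 4, 5, 3 and 3 counts, a ratio of replicate 2 to replicate 1 of 1.17 with a 95% counting interval of 0.370 to 3.78 (exact, pooled over genotypes). Both genes were already counted in both replicate 1 cultures, and in Hoxb13 the cultures of the 2 numbers overlapped.

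**Figure D2:**
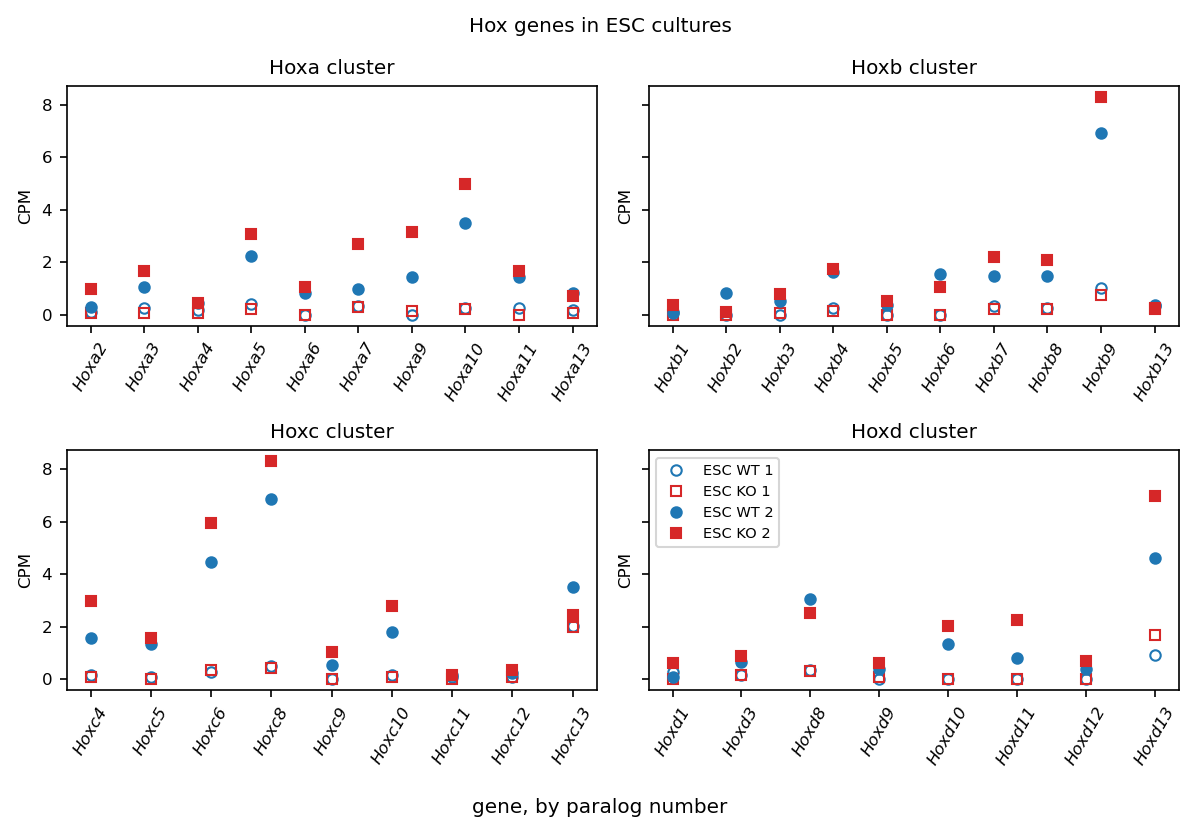
Level in CPM (linear axis) of 37 of the Hox genes in the 4 ESC cultures, with 1 panel per cluster and genes in order of paralog number. Open symbols are replicate 1 and filled symbols replicate 2, circles WT and squares KO. Both filled symbols lie above both open ones for all genes drawn except Hoxb1, Hoxb13 and Hoxd1, and reach 8.29 CPM for Hoxb9 and Hoxc8.

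Of the 23 members that passed the filter on low counts in this fit, 21 were called higher in replicate 2 and 0 lower, at a false discovery rate (FDR) under 0.05, where 20.6% of the 15080 genes tested were called higher. Because 15 members did not pass and most others passed through replicate 2 alone, the fit was also run with no filter, in which 29 of all 38 members were called and 12.6% of all genes were called higher. DESeq2 called 13 members, all higher in replicate 2.

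Position along the cluster ordered the ESC levels only loosely. By mean RPKM over both replicate 2 cultures, Spearman's rho with paralog number was 0.0909 over 11 Hoxa genes and 0.636 over 10 Hoxb genes. It was -0.250 over 9 Hoxc genes and 0.595 over 8 Hoxd genes, as a description of genes that share the same libraries. In WT and KO replicate 2 singly, rho was 0.191 and 0.1 in Hoxa and 0.564 and 0.491 in Hoxb. The single values were -0.2 and -0.433 in Hoxc and 0.476 and 0.405 in Hoxd. The highest member was Hoxa5 in Hoxa (mean 1.41 RPKM), Hoxb9 in Hoxb (2.96 RPKM), Hoxc8 in Hoxc (2.67 RPKM) and Hoxd13 in Hoxd (2.34 RPKM). Paralogs 4 to 8 held 45.4% and 43.9% of the Hox counts in WT and KO replicate 2, and paralogs 9 to 13 held 45.2% and 46.6%. Across the 38 members the levels in WT and KO replicate 2 ranked alike (rho = 0.884).

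Markers of fibroblasts, the usual feeder cells, moved with the same cultures. The list of 12 fibroblast genes summed to 212 and 209 CPM in WT and KO replicate 1 and to 4025 and 5016 CPM in WT and KO replicate 2, and 12 of 12 were called higher in replicate 2. Collagen Col3a1 stood at 10.96 and 10.47 CPM in replicate 1 and 343 and 407 CPM in replicate 2, and Prrx1, a mesenchymal homeobox gene, at 5.18 and 5.56 CPM and then 109 and 128 CPM. Postn and Tagln, genes of matrix and contractile fibres, were called higher by 5.77 and 2.89 log2 units. The defining markers Dcn and Lum were at 0 in 1 replicate 1 culture each. The part of these cells in the Hox counts was not tested, and in bulk RNA more cells of a type cannot be told apart from more RNA per cell.

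Pluripotency genes differed far less between the same cultures. Of 12 members 9 were called lower and 1 higher in replicate 2, and the list summed to 6562 and 6235 CPM in WT and KO replicate 1 and 5726 and 5528 CPM in replicate 2. Klf4 had a log2 difference of -0.54 and Tdgf1, a Nodal co-receptor, of -0.35. Other cell type lists moved as well: of the genes that passed the filter, 7 of 8 vascular and meningeal genes, 7 of 8 midbrain and hindbrain genes and 5 of 6 forebrain genes were called higher in replicate 2. Most of those vascular and meningeal genes are also on the fibroblast list, and the remaining 1 of the 8 was called lower. Of 12 genes of early mesoderm, where Hox genes are first switched on in the embryo, 4 passed the filter and 1, the endothelial receptor Kdr, was called higher, by 1.22 log2 units. Kdr was high in KO replicate 2 alone, at 1.19, 1.42, 1.61 and 5.24 CPM in WT 1, WT 2, KO 1 and KO 2. The part of these cell types in the Hox counts was not tested. Cdx1, a ParaHox gene known as an upstream regulator of Hox genes, was not called (0.31 ± 0.31 log2 units, SE, adjusted p = 0.479, edgeR).

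Among the genes that work with Hox proteins or on their clusters, 4 of 9 TALE homeobox cofactors were called higher in ESC replicate 2 and 0 lower. Among them were Meis1, Meis2 and Meis3, higher by 1.68, 1.72 and 1.97 log2 units. Over all genes tested, 20.6% were called higher and 16.8% lower. Of 11 genes of Polycomb repressive complex 2 (PRC2), which places H3K27 methylation, 7 were called lower and 1 higher, with log2 differences of -0.36 for Mtf2, -0.24 for Suz12 and 0.88 for Phf1. Of 16 genes of retinoic acid signalling, an inducer of Hox genes, 12 passed the filter, 7 were called higher and 0 lower. Crabp2 and Crabp1, which bind retinoic acid in the cell, were higher by 1.12 and 1.05 log2 units.

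NPC replicate 2 cultures showed a different set, the Hoxa genes of low number. Of the 21 members with a count in NPCs, 7, all of them Hoxa genes, were higher in CPM in both replicate 2 cultures than in all 4 others and 0 were lower, where 21.1% of all genes with a count in NPCs were higher. An F test of the replicate number called 6 of the 6 members that passed the filter, where 13.7% of all 14684 genes tested were called. These 6 passed through their level in replicate 2, so that count is no separate result, and with no filter 6 of 21 members were called. The same holds for replicate 2 against the mean of replicates 1 and 3, where all 6 were called higher (9.32% of genes tested were called higher and 11.4% lower). Between replicates 3 and 1, 0 of 6 were called (0.0136% of genes tested were), with a smallest unadjusted p of 0.106 in edgeR. The last 2 contrasts were chosen after the values were seen.

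Hoxa5, known for its part in the neck vertebrae and the lung, had the highest level. It stood at 0.212, 13.5 and 0.129 CPM in WT replicates 1, 2 and 3 and at 0.528, 10.5 and 0.138 CPM in KO replicates 1, 2 and 3. The replicate 2 culture of either genotype was above all other cultures, and the remaining 4 were all below 1 CPM. The replicate F test gave an adjusted p of 0.00300 (edgeR), and replicate 2 exceeded the mean of the others by 5.64 ± 0.32 log2 units (SE).

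Hoxa2, which gives the second pharyngeal arch its identity, had 6, 53 and 7 counts in WT replicates 1 to 3 and 13, 46 and 4 in KO. Hoxa3, a gene of the third arch and the thymus, had 2, 109 and 3 counts in WT and 9, 62 and 0 in KO. Hoxa4 had 1, 80 and 1 counts in WT and 1, 30 and 0 in KO. Each of these genes was again high only in replicate 2 of both genotypes, and KO replicate 2 was below WT replicate 2 in all 3. Replicate 2 exceeded the others by 2.86 ± 0.38 log2 units for Hoxa2 (adjusted p = 0.00631) and 4.92 ± 0.63 for Hoxa3 (adjusted p = 0.00895), with SE from edgeR's quasi-likelihood fit. Hoxa4, with 3 counts outside replicate 2, was called at an adjusted p of 0.00167, and its ratio of 82.0 had a 95% counting interval of 27.3 to 404.

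The level dropped between Hoxa5 and Hoxa9. Hoxa6 had 3 and 12 counts in WT and KO replicate 2 and 0 to 3 in the other cultures, and Hoxa7 had 13 and 17 counts against 0 or 1, a ratio of 33.5 with a 95% counting interval of 8.51 to 290. From Hoxa9 onwards the 4 remaining Hoxa genes had 0 or 1 count in every NPC culture. Per kilobase, WT and KO replicate 2 stood at 2.53 and 1.87 RPKM for Hoxa2 and 7.18 and 5.60 RPKM for Hoxa5. They stood at 0.383 and 0.426 RPKM for Hoxa7, and 0 and 0.0129 RPKM for Hoxa9. By mean RPKM over both, rho with paralog number over the 11 Hoxa genes was -0.872 (-0.847 in WT and -0.862 in KO).

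**Figure D3:**
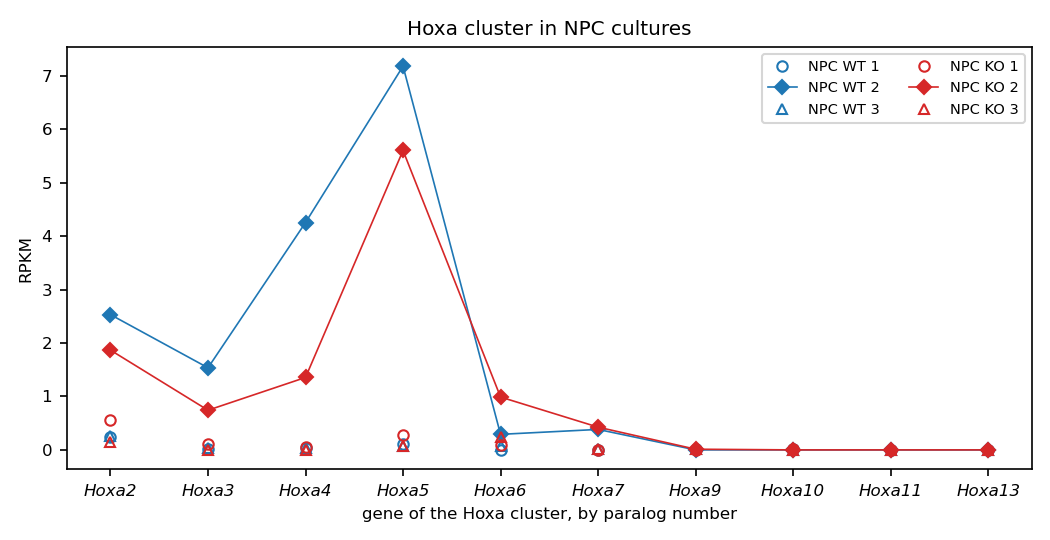
Level in RPKM (linear axis) of 10 of the Hoxa genes, in order of paralog number, in the 6 NPC cultures. Filled diamonds joined by lines are replicate 2, open symbols are replicates 1 and 3, blue WT and red KO. Replicate 2 peaks at Hoxa5 (7.18 RPKM in WT, 5.60 RPKM in KO) and is at or near 0 from Hoxa9 onwards.

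The other clusters were almost without counts in NPCs. The Hoxb, Hoxc and Hoxd genes together had 1 and 8 counts in WT and KO replicate 2, against 535 and 415 for the Hoxa genes. In the other 4 cultures the Hoxb genes had 0, 13, 10 and 1 counts in WT 1, WT 3, KO 1 and KO 3, so those few counts did not follow the replicate number. Of the 38 members 17 had no count in any NPC culture, among them Hoxb9, Hoxc8 and Hoxd13, the genes with the highest ESC levels in their clusters.

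Several neighbouring transcripts on the other strand of the low-numbered Hoxa genes rose with them. Hotairm1 had 6, 85 and 12 counts in WT replicates 1, 2 and 3 and 3, 79 and 9 in KO, a difference of 3.68 ± 0.25 log2 units (SE, adjusted p = 0.00143, edgeR) between replicate 2 and the mean of the others. Gm15050, annotated as antisense, was called higher by 3.45 log2 units, and Hoxaas3 had 25 and 13 counts in WT and KO replicate 2 and 0 or 1 in the other cultures. Hoxaas2, with 23 and 18 counts in replicate 2 and 1 to 12 in the others, was not called. Skap2, an adaptor protein gene and the protein-coding neighbour beyond the low-numbered end of the cluster, stood at 53.4, 186 and 60.2 CPM in the WT cultures and at 58.6, 136 and 66.4 CPM in KO, a difference of 1.37 ± 0.15 log2 units (SE, adjusted p = 0.00766). Evx1, the neighbour beyond Hoxa13, had 0 counts in all 6 NPC cultures. Of these, Hotairm1, Hoxaas2 and Hoxaas3 share exon bases with Hoxa genes on the opposite strand, and the deposited tables of the cell cultures are named as counted without strand, so their reads cannot be fully told apart from those of such genes, Hoxa3 and Hoxa7 among them. In ESCs Skap2 was lower in replicate 2, with a log2 difference of -0.16 (adjusted p = 0.0448), the opposite direction to NPCs.

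Regional identity genes of the brain differed between the same NPC cultures. Over all genes tested, 9.32% were called higher and 11.4% lower in replicate 2. Of 12 forebrain genes 10 passed the filter, 3 were called lower in replicate 2 and 0 higher, and the list summed to 66.6 and 208 CPM in WT and KO replicate 2 against 236 to 266 CPM in the other 4. The 3 called were homeobox genes of the ventral forebrain: Dlx1 and Dlx2, with log2 differences of -1.54 and -1.99, and Gsx2, at 0 and 0.216 CPM in WT and KO replicate 2 against 1.59 to 4.96 CPM in the others. Of 12 midbrain and hindbrain genes 7 passed, 5 were called higher and 1 lower, and the list summed to 95.0 and 69.9 CPM in WT and KO replicate 2 against 39.8 to 44.3 CPM in the others. En1 and En2, the Engrailed genes of the midbrain-hindbrain boundary, were higher by 3.003 and 2.08 log2 units, and Irx2 and Irx3 by 1.34 and 1.001. Egr2, a gene of the hindbrain segments, had a log2 difference of -0.60.

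**Figure D4:**
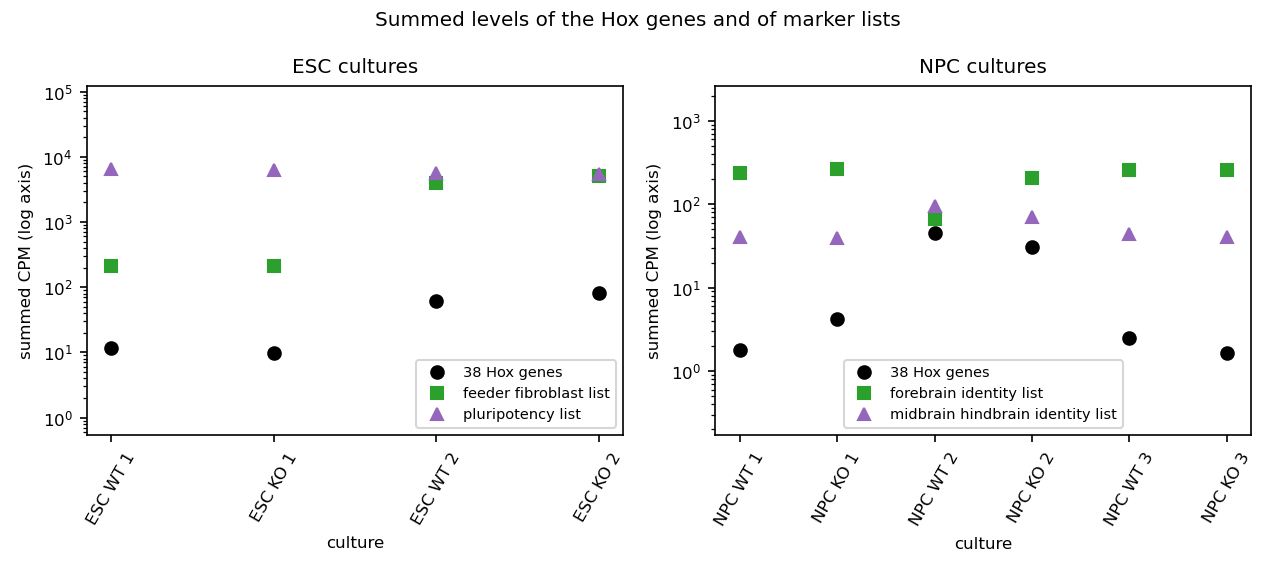
Summed level in CPM (log axis) of the 38 Hox genes and of marker lists in the 4 ESC cultures (left: fibroblast and pluripotency lists) and the 6 NPC cultures (right: forebrain and midbrain-hindbrain lists), 1 symbol per culture and list. In ESCs the Hox sum and the fibroblast sum are both higher in replicate 2, and in NPCs the Hox sum is highest where the midbrain-hindbrain sum is highest.

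The WT and KO replicate 2 cultures of NPCs were not alike in all of these genes. Six3, of the anterior forebrain, stood at 40.3, 1.36 and 63.1 CPM in WT replicates 1, 2 and 3 and at 48.4, 64.1 and 61.8 CPM in KO, and the difference was not called (adjusted p = 0.591, edgeR). WT replicate 2 was thus the lowest culture and KO replicate 2 the highest. Six3 was picked after its values were seen. The part of regional origin in the Hox counts was not tested.

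Among the cofactors, 2 of 9 TALE genes were called lower in NPC replicate 2 and 0 higher. Pknox2, 1 of the lower, had a log2 difference of -0.79. Over all genes tested, 9.32% were called higher and 11.4% lower, so a few calls in a short list are no separate result. Of 11 PRC2 genes 3 were called higher, Ezh1, Phf19 and Rbbp7, by 0.25 to 0.53 log2 units. Of 12 retinoic acid genes tested 2 were called higher and 2 lower: Aldh1a1, which makes retinoic acid, and the receptor Rarb were higher by 2.82 and 1.82 log2 units, and the receptor Rara, among the lower, had a log2 difference of -0.82. The 8 ParaHox and even-skipped genes, close relatives of the Hox clusters, had 2 members that passed, Gsx1 and Gsx2, and both were called lower. Of 12 fibroblast genes 9 passed, 0 were called higher in NPC replicate 2 and 2 lower, and the list summed to 53.7 and 126 CPM there against 151 to 229 CPM in the other cultures. Prrx1 was the largest part of the sum in those others, at 77.8 to 133 CPM, while Col3a1 stood at 1.04 to 11.5 CPM over all NPC cultures. Both were picked here after their values were seen.

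Few members could be tested between tissues. In the fit of the 11 WT samples 5 members passed the filter. Hoxc13 and Hoxb9 were called lower in NPCs than in ESCs, where 39.8% of all 17672 genes tested were called lower. Both had 0 counts in every NPC and brain library, so they passed the filter through ESCs alone, which fixed the direction of these calls. Their share of the 5 was also close to that over all genes, so the calls are no separate result. Hoxc13 had 24 and 47 counts in WT ESCs and 0 in each WT NPC culture, at least 39.0-fold lower against a floor of 3 counts over the 3 cultures (adjusted p = 5.73e-04), and Hoxb9 had 12 and 93 against 0, at least 57.7-fold lower (adjusted p = 0.0261). The Hoxb9 call was lost with no filter and with DESeq2 (adjusted p = 0.0912 and 0.100), and Hoxb9 did not pass the filter when WT ESC replicate 2 or any 1 NPC culture was left out. The Hoxc13 call was lost with DESeq2 alone (adjusted p = 0.125) and was made without the replicate 2 cultures too (adjusted p = 6.49e-04, edgeR).

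Of the same 5 members, 1 was called lower in STR than in NPCs (34.6% of genes tested were called lower) and 1 lower in PFC than in NPCs (35.7% were). Leaving out any 1 STR sample ended the call against STR. Hoxa5 and Hoxa3 had 0 counts in every WT brain sample and were not called against NPCs, with adjusted p between 0.0897 and 0.0914 (edgeR). No member was called between PFC and STR (12.3% of genes tested were), with 0 at an unadjusted p under 0.05 and 0 in DESeq2.

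No Hox gene was called changed with loss of Phf8, though in brain hardly any could be tested. In edgeR 0 members were called between KO and WT in ESCs (23 tested, with 0% of all genes tested called), NPCs (2 tested, 0.00697% called), STR (0 tested, 0% called) and PFC (0 tested, 0.638% called). The same test did not call Phf8 itself in ESCs or STR, although its KO and WT levels did not overlap there. In those fits 0 calls cannot show that a gene was unchanged. In ESCs and NPCs 0 members had an unadjusted p under 0.05 and DESeq2 called 0, whereas in STR and PFC DESeq2 also tested 0 members. With no filter 7 members were tested in STR and 7 in PFC, with 0 at an unadjusted p under 0.05. With the replicate number as a block, 513 of 15080 genes were called in ESCs but 0 Hox members. Of the 23 members tested, 4 had an unadjusted p under 0.05, and the smallest adjusted p was 0.118 (edgeR). The share of all genes at that unadjusted level is not given here. The number of genes called in PFC, 98, changed to 2 without KO replicate 2, 2 without KO replicate 3, 37 without KO replicate 1, 18 without WT replicate 2 and 154 without WT replicate 1.

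In ESCs the mean level of Hoxb9 was 3.97 ± 4.18 CPM (SD, n = 2) for WT against 4.51 ± 5.35 CPM (SD, n = 2) in KO, and the KO effect was 0.16 ± 1.54 log2 units (SE, adjusted p = 0.999995, edgeR). The genotypes overlapped, and the cultures differed mostly by replicate number. Hoxc13, whose cultures differed less by number, had a KO effect of -0.33 ± 0.39 log2 units (SE). Over the 23 members tested the KO effects ran from -0.65 to 1.37 log2 units with a median of 0.34, against 0.0090 over all genes. That median was -0.45 without WT replicate 1, 2.12 without WT replicate 2, 1.25 without KO replicate 1 and -2.64 without KO replicate 2. Its sign and size thus depended on single cultures, and the members tested differed between these fits.

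In NPCs Hoxa5 averaged 4.61 ± 7.68 CPM (SD, n = 3) for WT against 3.73 ± 5.88 CPM (SD, n = 3) in KO, and it did not pass the filter by genotype. Hoxa2 passed, with a KO effect of -0.18 ± 1.14 log2 units (SE, adjusted p = 0.9998, edgeR), and its sign turned when WT replicate 2 was left out (1.76). The edgeR test of a difference in KO effect between NPCs and ESCs called 0 of 25 members (0% of genes tested). It gave 0 at an unadjusted p under 0.05 and 0 in DESeq2. Several of the 25, such as Hoxb9 and Hoxc13, had 0 counts in every NPC library. Their SE was 540 and 582 log2 units, so no difference could be estimated for them. The 0 calls therefore cannot show that KO effects were alike. The test between PFC and STR had 0 members to test (0.00624% of genes tested were called).

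**Figure D5:**
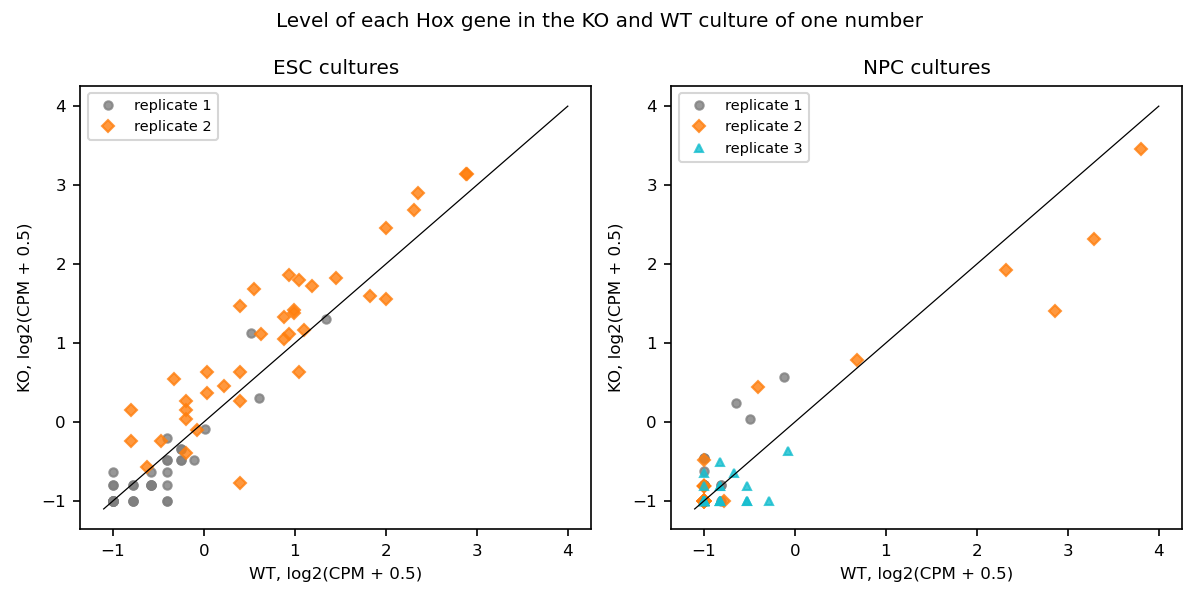
Level of 37 of the Hox genes as log2(CPM + 0.5) in the WT culture (horizontal axis) and the KO culture (vertical axis) of the same replicate number, for ESCs (left) and NPCs (right). The line marks equal levels. Replicate 2 cultures (orange diamonds) reach the high levels in both genotypes, while replicates 1 and 3 gather at the low end.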

How the data were processed

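RNA-seq gene counts of 22 samples were used as deposited: per the labels and the study's methods the authors made TruSeq RNA libraries, called bases with CASAVA 1.7, aligned reads to mm10 with STAR (version not given in the sources used here) and counted uniquely aligned reads per Ensembl 75 gene with HTSeq. The deposited count tables held raw counts, and the tables of cell cultures are named as not stranded, while the strand setting for brain is not given in the sources used here. Rows that name no gene were left out: of the sum over all rows, alignments that were not unique made up 43.2 to 45.5% in ESCs, 33.2 to 34.3% in NPCs and 7.62 to 8.90% in brain, reads on no gene 5.35 to 15.4% and ambiguous reads 1.29 to 2.67%.

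Symbols and positions came from GENCODE M21 (GRCm38), which matched 37693 of 39179 identifiers holding 99.7% of counts. CPM were divided by total gene counts, and RPKM also by exon length; 11 members share exon bases with another annotated gene. Promoters came from RefSeq GRCm38.p6, where 21 members matched. The main test was edgeR 4.0.16 (R 4.3.3), quasi-likelihood, TMM scaling, filterByExpr and Benjamini-Hochberg FDR under 0.05 over all genes tested. KO was compared with WT within each tissue, ESC replicates with genotype as a term, NPC replicates by an F test, and tissues over the WT samples. Ratios have exact 95% counting intervals, with a floor of 3 counts over the group. Alternatives were RLE scaling, no filter, DESeq2 1.42.0, a replicate block, the KO samples, other thresholds and left-out samples. Simulated counts were used only to try edgeR fits of KO against WT in each tissue and of replicate 2 in ESCs and NPCs.

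Replicate numbers in the labels are shared by WT and KO. Same-numbered ESC cultures deviated alike from their group means (r = 0.876), though with 2 cultures per genotype both pairs give the same value. Deviations from the group means correlated between same-numbered NPC cultures (r = 0.569, 0.705 and 0.524), so the numbers pair the NPC cultures, as read from the data; in STR (0.0646, -0.0215 and 0.133) and PFC (0.0546, -0.0320 and 0.0407) they did not. The members and marker lists were chosen with earlier results of these data known. Some genes are not reported here singly and are left out of the figures that show single genes, though sums and counts of members include them. Otherwise any member could be named; other genes were named from the lists (at most 4 per list and direction, by smallest p among those called, or, where none was called, the 2 with the highest mean level), as cluster neighbours, or as chosen after their values were seen.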

Additional observations from a re-analysis of the deposited data

How the results depend on the processing

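The KO comparisons and both tests of a difference in KO effect called 0 Hox members under every alternative run. In STR and PFC the KO comparison had members to test with no filter alone (7 in each). Its other runs there could call none, so they are no check of the result. The main test between PFC and STR likewise had 0 members to test. The replicate block, with numbers that pair the NPC cultures, changed no member's call by genotype. In ESCs, where same-numbered cultures also deviated alike (r = 0.876), it moved genes called from 0 to 513. It left 4 of the 23 Hox members tested at an unadjusted p under 0.05, with a smallest adjusted p of 0.118 (edgeR). Genes called by genotype under the block were 3 against 1 in NPCs, 8 against 0 in STR and 140 against 98 in PFC; with DESeq2 they were 3 in either cell type, 60 in STR and 182 in PFC, and with no filter 2 in NPCs, 27 in STR and 379 in PFC.

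Between ESC replicates DESeq2 called 13 members and 1831 genes, against 21 and 5630 in edgeR, and leaving out 1 culture gave 18 to 21 members; between NPC replicates it gave 5 to 6. NPCs against ESCs gave 12 members with no filter and 1 to 17 with 1 sample left out: 17 without WT ESC replicate 1, and 1 without WT ESC replicate 2, WT NPC replicate 1 or WT NPC replicate 3. With the replicate block, STR against NPCs and PFC against NPCs each gave 3 members instead of 1, and leaving out 1 sample gave 0 to 1 and 1. The KO effect on Hoxa2 in NPCs turned positive without WT replicate 2 (1.76), KO replicate 1 (0.031) or KO replicate 3 (0.30), and was -1.41 without KO replicate 2. Expressed members were 2 in ESCs and 0 in NPCs at 1 CPM, and 13 and 2 at 0.2 CPM. The rho with position was 0.479 (unshared exon length) and 0.455 (CPM) in Hoxb, and 0.50 (CPM) in Hoxd. The cause of these shifts was not tested. A count of 0 in a brain library allows up to 0.296 to 0.509 CPM, so lower levels could not be detected.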

Other observations

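Other regulators of the Hox clusters gave the following values between replicate cultures. Of 18 genes of Polycomb repressive complex 1, 5 were called higher and 5 lower in ESC replicate 2, and 4 were called higher and 0 lower in NPC replicate 2 against the mean of the others. Of 10 Trithorax and H3K27 demethylase genes, 1 was called higher and 6 lower in ESC replicate 2, and 2 were called higher and 1 lower in NPC replicate 2. Over all genes tested in edgeR, 20.6% were called higher and 16.8% lower in ESC replicate 2, and 9.32% higher and 11.4% lower in NPC replicate 2.

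Across the 38 members, the levels in WT and KO NPC replicate 2 had a Spearman's rho of 0.724, a description of genes that share the same libraries. Gm53, a noncoding gene within the Hoxb cluster, had 48 and 32 counts in WT and KO ESC replicate 1 and 87 and 71 in WT and KO replicate 2. Hoxb3os, also in that cluster, had 1 and 4 counts in WT and KO replicate 1 and 20 and 18 in WT and KO replicate 2.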
